A study of Drosophila melanogaster with 39 samples.

Results

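The proteasome subunit genes are the 48 genes, of 18358 in the dm6 annotation, whose symbols begin with Prosalpha, Prosbeta, Rpn or Rpt and a number. They comprise 32 core subunit genes (7 Prosalpha, 7 Prosbeta, 6 Rpt and 12 Rpn) and 16 paralogs with a T or R in the symbol, many of them testis-specific, which are named apart. They lie on 5 chromosome arms, with 14 on 3R, 13 on 2R, 8 on 2L, 7 on 3L and 6 on X. ChIP-seq for Cul4, CP190 and Su(Hw) was done in Kc167 cells, an embryo-derived line of hemocyte (blood cell) type. The cells had received *mcherry* dsRNA (control), *eff* dsRNA or *cul4* dsRNA for 4 days. Each factor and treatment had 3 biological replicates. Cul4 was recovered with a rabbit antibody, and in control cells also with a mouse antibody, which gives 30 libraries with a peak list in 10 groups. Effete (Eff) is a ubiquitin-conjugating enzyme, Cul4 is the cullin on which CRL4 ubiquitin ligases assemble, and Su(Hw) and CP190 are proteins of the *gypsy* chromatin insulator. Peak lists measure neither RNA nor protein, so neither the depth of the knockdowns nor the hemocyte identity of the cells can be checked in them.

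The proteasome degrades proteins tagged with ubiquitin. Its barrel, the 20S particle, has outer rings of alpha subunits that gate the entrance and inner rings of beta subunits, of which *Prosbeta1*, *Prosbeta2* and *Prosbeta5* carry the protease sites. The 19S cap holds the Rpt subunits, ATPases that unfold the substrate, and the Rpn subunits, among them the ubiquitin receptors *Rpn1*, *Rpn10* and *Rpn13* and the deubiquitinase *Rpn11*. The core genes are active in nearly every cell, whereas in Drosophila many of the paralogs serve the male germline.

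A gene was called in a library when any base of a peak lay within 1 kb of one of its transcription start sites (TSSs). In this window 22 of the 32 core genes (68.8%) have the TSS of a protein-coding gene on the opposite strand, against 32.6% of all genes and 4 of the 16 paralogs. From a call alone, a peak at such a gene cannot be given to one of the neighbours. *Rpt5* and *RanBP3* lie nearest each other among the core genes, with TSSs 42 bp apart, followed by *Rpt4* and *mldr* at 58 bp and *Rpt2* and *CG13599* at 81 bp. No 2 of the 48 genes share a window.

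Some of the core promoters hold known promoter motifs. TATCGATA, the DNA replication-related element (DRE) that DREF and BEAF-32 recognise, was found within 250 bases before to 50 after the gene start in 12 of 32 core genes (37.5%) and in 0 of 16 paralogs, against 7.48% of the 18277 genes with a full window. GGTCACAC, the motif of M1BP, was found in 5 core genes (15.6%) and 0 paralogs, against 6.08% of all genes. TGACNNNGC, the antioxidant response element of CncC and Maf-S, transcription factors that raise proteasome gene expression under stress, was found in 5 core genes (15.6%) and 1 paralog, against 8.37%. GAGAGAG, bound by GAGA factor, was found in 0 core genes and 2 paralogs, against 5.58%, and GCNTACTT, a part of the Su(Hw) motif, in 3 core genes (9.38%) and 0 paralogs, against 3.74%. Both strands were searched, and in 2 genes, *Rpn1* and *Prosbeta3*, a GGTCACAC and a TGACNNNGC match overlap. These matches are letters in a window and not measured binding. The plot of promoter features shows the core genes above all genes for 5 of the 6 features.

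**Figure D1:**
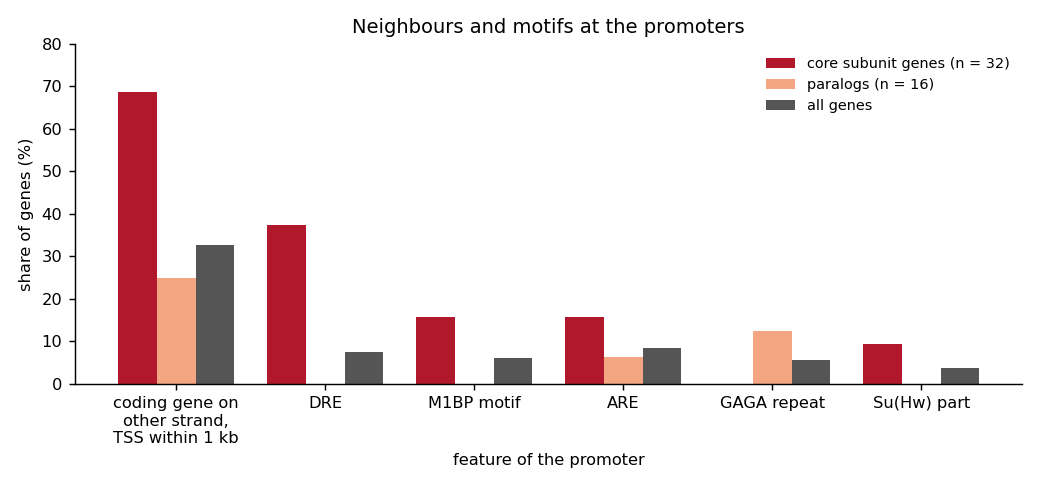
Share of genes (y axis, percent) with each promoter feature (x axis) for the 32 core subunit genes (red), the 16 paralogs (light red) and all genes (grey); a missing bar is a share of 0. Core genes stand at 68.8% for a coding neighbour on the opposite strand and 37.5% for the DRE, against 32.6% and 7.48% of all genes.

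The stretches just upstream of 6 of these genes are printed to show the DNA beside genes that are described below. *Prosalpha6* and *Prosbeta6* are core genes with a DRE, *Rpt2* and *Rpn10* carried some of the strongest Cul4 peaks of the set, and *Rpt6* and its paralog *Rpt6R* were both among the 5 genes with the strongest CP190 peaks. Each runs 5′ to 3′ on the gene's own strand and ends at the base before the annotated gene start, and it is cut short where an annotated exon of a neighbour begins. Capitals mark the DRE, and the other 4 motifs have no match in these stretches. On the release 6 assembly (dm6) they lie at chr2L:10221217-10221350 on the plus strand for *Prosalpha6*, chr3L:16610419-16610568 on the minus strand for *Prosbeta6*, chr3R:23931559-23931638 on the minus strand for *Rpt2*, chr3L:21536862-21536999 on the plus strand for *Rpn10*, chrX:21315902-21316051 on the plus strand for *Rpt6* and chr3R:30583698-30583847 on the minus strand for *Rpt6R*.
Prosalpha6: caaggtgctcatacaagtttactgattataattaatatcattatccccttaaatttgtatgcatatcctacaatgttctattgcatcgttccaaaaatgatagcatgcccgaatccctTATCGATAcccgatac
Prosbeta6: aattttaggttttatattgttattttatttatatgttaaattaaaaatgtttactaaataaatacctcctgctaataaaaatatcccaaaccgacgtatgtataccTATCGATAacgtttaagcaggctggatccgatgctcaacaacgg
Rpt2: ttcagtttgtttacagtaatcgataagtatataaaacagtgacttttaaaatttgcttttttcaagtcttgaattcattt
Rpn10: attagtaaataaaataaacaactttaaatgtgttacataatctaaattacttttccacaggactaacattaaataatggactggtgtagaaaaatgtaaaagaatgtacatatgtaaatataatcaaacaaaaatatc
Rpt6: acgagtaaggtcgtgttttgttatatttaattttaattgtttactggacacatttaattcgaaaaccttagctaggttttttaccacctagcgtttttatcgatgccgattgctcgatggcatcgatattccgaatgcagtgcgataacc
Rpt6R: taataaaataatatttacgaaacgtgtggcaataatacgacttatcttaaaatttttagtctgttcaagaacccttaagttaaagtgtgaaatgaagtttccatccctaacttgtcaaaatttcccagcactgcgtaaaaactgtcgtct

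Between 424 and 9149 peaks were called per library, with a lowest −log10 q of 9.04 to 15.0. No read totals were given, and depth was therefore gauged from the lowest local background among a library's peaks, 4.49 to 33.2 reads. The lists do not hold this background. It was worked out from the fold enrichment and p-value of the peaks, assuming a Poisson distribution of reads, and is a rough gauge. A deeper library can call weaker sites. Libraries of the Cul4 group after *eff* knockdown stood apart from one another, with 4488 peaks and a lowest background of 33.2 in replicate 1, 571 peaks and 19.4 in replicate 2, and 424 peaks and 4.49 in replicate 3. Strength is given as the percentile of a peak's fold enrichment within its own list, so that 50 is the middle of that list. A percentile also moves with the length of a list, since an unchanged peak ranks lower where the weak peaks are no longer called, and lists of Cul4 held 4447 to 5355 peaks in control cells and 2378 to 3431 after *cul4* knockdown.

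In control cells most core proteasome genes carried Cul4 and CP190, and the paralogs carried little of either. Cul4 was called at 23, 23 and 21 of the 48 genes in the 3 libraries and at 20 in all 3 of them, each one a core gene (20 of 32, 62.5%), whereas 25.3% of all genes were called in 3 libraries. CP190 was called at 36, 30 and 36 genes and at 30 in all 3, of which 26 were core genes (81.2% of 32), against 39.2% of all genes. Su(Hw) was called at 2, 3 and 3 genes and at 2 in all 3, against 6.7% of all genes. The mouse Cul4 antibody called 0 of the 48 in each of its 3 libraries, against 3.55% of all genes in all 3, with lists of 809 to 933 peaks.

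**Figure D2:**
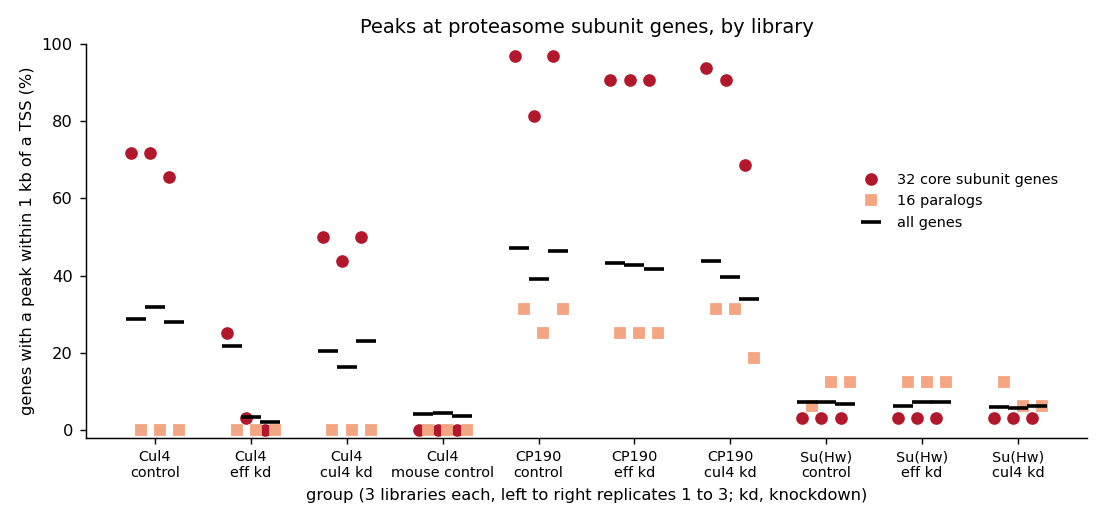
Percent of genes with a peak within 1 kb of a TSS (y axis) in each of the 30 libraries, by group (x axis), for the 32 core subunit genes (red circles), the 16 paralogs (light squares) and all 18358 genes (black bars). Core genes lie above all genes in every Cul4 (rabbit) control and CP190 library, and fall to 25%, 3.12% and 0% in the Cul4 libraries after *eff* knockdown. All genes stand at 21.7%, 3.39% and 1.96% in those libraries.

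Each class of core subunit took part. Cul4 was called in all 3 control libraries at 3 of 7 Prosalpha, 5 of 7 Prosbeta, 5 of 6 Rpt and 7 of 12 Rpn genes, and CP190 at 5 of 7, 6 of 7, 6 of 6 and 9 of 12. A further 2 core genes had Cul4 in 2 of the 3 libraries (*Prosalpha4* and *Rpn7*) and 3 in 1 library (*Prosalpha7*, *Prosbeta2* and *Rpt1*), which leaves 7 core genes at which no control library called it. These were *Prosalpha1*, *Prosalpha3*, *Prosbeta4*, *Rpn1*, *Rpn3*, *Rpn11* and *Rpn12*. CP190 was called in 2 of the 3 control libraries at 6 more genes, *Prosalpha6*, *Prosbeta4*, *Rpn3*, *Rpn11*, *Rpn12* and the paralog *Rpt4R*, all of them missed by replicate 2, the shortest of the 3 lists with 7358 peaks. *Prosalpha1* was the sole core gene without a peak in any of the 30 lists. Its nearest control peaks of CP190 lay 3068 to 3166 bp and those of Cul4 4871 to 4975 bp from its TSS.

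Cul4 and CP190 were mostly found at the same genes. Of the 20 genes with Cul4, 19 (95%) had CP190 in all 3 control libraries, and of the 30 with CP190, 19 (63.3%) had Cul4. Over all genes these shares were 83.9% and 54.1%. The sole gene with Cul4 but not CP190 in all 3 control libraries was *Prosalpha6*, an alpha ring subunit, where CP190 was called in 2. The 11 with CP190 but not Cul4 in all 3 were 7 core genes and the 4 paralogs. Of these core genes, *Prosalpha4* and *Rpn7* had Cul4 in 2 control libraries, and *Prosalpha7*, *Prosbeta2* and *Rpt1* in 1. At the 19 shared genes the summits of Cul4 and CP190 lay a median of 57 bp apart, against 138.5 bp over 3892 genes with both. They were closest at *Rpt2* (15 bp) and *Rpn9* (20 bp). They were far apart at *Rpn13* (309 bp), *Rpn8* (446 bp), *Rpt3* (1113 bp) and *Prosbeta6* (1128 bp), so at these 4 genes the factors peaked at different places in or beside the window. Summits sat a median of 70.5 bp from the TSS for Cul4 and 71 bp for CP190, compared with 120 and 163 bp over all genes called.

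Among the core genes, those with and without a DRE or a divergent neighbour were called at similar rates. Cul4 was called in 3 libraries at 7 of the 12 core genes with a DRE and 13 of the 20 without, and at 14 of the 22 with an opposite-strand coding neighbour and 6 of the 10 without. CP190 was called at 9 of 12 and 17 of 20, and at 18 of 22 and 8 of 10. Over all genes both features went with more calls, for Cul4 44.4% with and 23.7% without a DRE, and 43.2% with and 16.6% without such a neighbour, and for CP190 71.9% and 36.5%, and 65.5% and 26.4%. GGTCACAC differed in this: Cul4 was called at 2 of the 5 core genes with it and 18 of the 27 without, and CP190 at 5 of 5 and 21 of 27, whereas over all genes the shares with and without it were 58.5% and 23.1% for Cul4 and 83.6% and 36.3% for CP190. No test was made of these shares.

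The proteasome genes were not among the strongest sites. For the 20 genes with Cul4 in 3 control libraries the median percentile was 41.3, against 57.3 over all 4640 such genes, and for the 30 with CP190 it was 40.5, against 53.6 over 7190. The range was wide, from 11.1 to 91.9 for Cul4 and from 9.88 to 88.9 for CP190.

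*Rpn13*, the cap subunit that receives ubiquitin, headed the Cul4 order by mean percentile, with 91.8, 91.9 and 92.0 in the 3 control libraries, a mean of 91.9 ± 0.121 (SD, n = 3). *Prosalpha5*, an alpha ring subunit, followed at 90.5, 90.7 and 90.9, and *Rpt2*, an ATPase of the base of the cap, at 92.3, 89.7 and 86.5. *Rpn13* lay above *Prosalpha5* in each library, while the values of *Rpt2* spanned both. The Cul4 summit at *Rpn13* lay a median of −423 bp from its nearest TSS, and *CtsL1* has a TSS 271 bp from one of *Rpn13*. The peak therefore cannot be given to *Rpn13* rather than *CtsL1*. *Rpt3*, another ATPase, stood at 96.8, 94.4 and 46.7, so that its place in the order rests on 2 libraries, in which the summit lay at −1428 and −1444 bp from the TSS (negative is upstream), whereas in replicate 3 it lay at −386 bp. *Rpn10*, a ubiquitin receptor, was at 75.8, 87.7 and 59.3. At the lower end were *Prosbeta5*, which carries a protease site, at 6.45, 33.0 and 17.6, *Rpt4* at 16.3, 17.9 and 10.2, and *Prosalpha2* at 23.8, 7.19 and 2.2. The values of these 3 overlap, so their order is not resolved.

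The CP190 order began with the paralog *Rpt6R* at 90.2, 85.8 and 90.8, *Rpn10* at 88.8, 80.2 and 87.9, and *Rpt6*, the ATPase of which *Rpt6R* is a copy, at 84.0, 82.8 and 84.4. *Prosalpha5* was at 78.0, 80.7 and 79.0 and the paralog *Prosalpha4T2* at 84.1, 61.0 and 78.7, so that neighbours in this order overlap except that all values of *Rpt6* lie above those of *Prosalpha5*. The CP190 summit lay at −75 to −53 bp from the TSS at *Rpt6* and at −63 to −55 bp at *Rpt6R*. The lowest were *Rpt5* at 22.8, 6.24 and 27.0, *Prosbeta2R2* at 18.1, 8.83 and 22.2, and *Prosalpha2* at 12.4, 1.39 and 15.8, again with overlapping values. Each of these 3 genes was lowest in replicate 2. *Rpn10* and *Prosalpha5* were thus among the first 5 for both factors, and *Prosalpha2* was last for both.

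**Figure D3:**
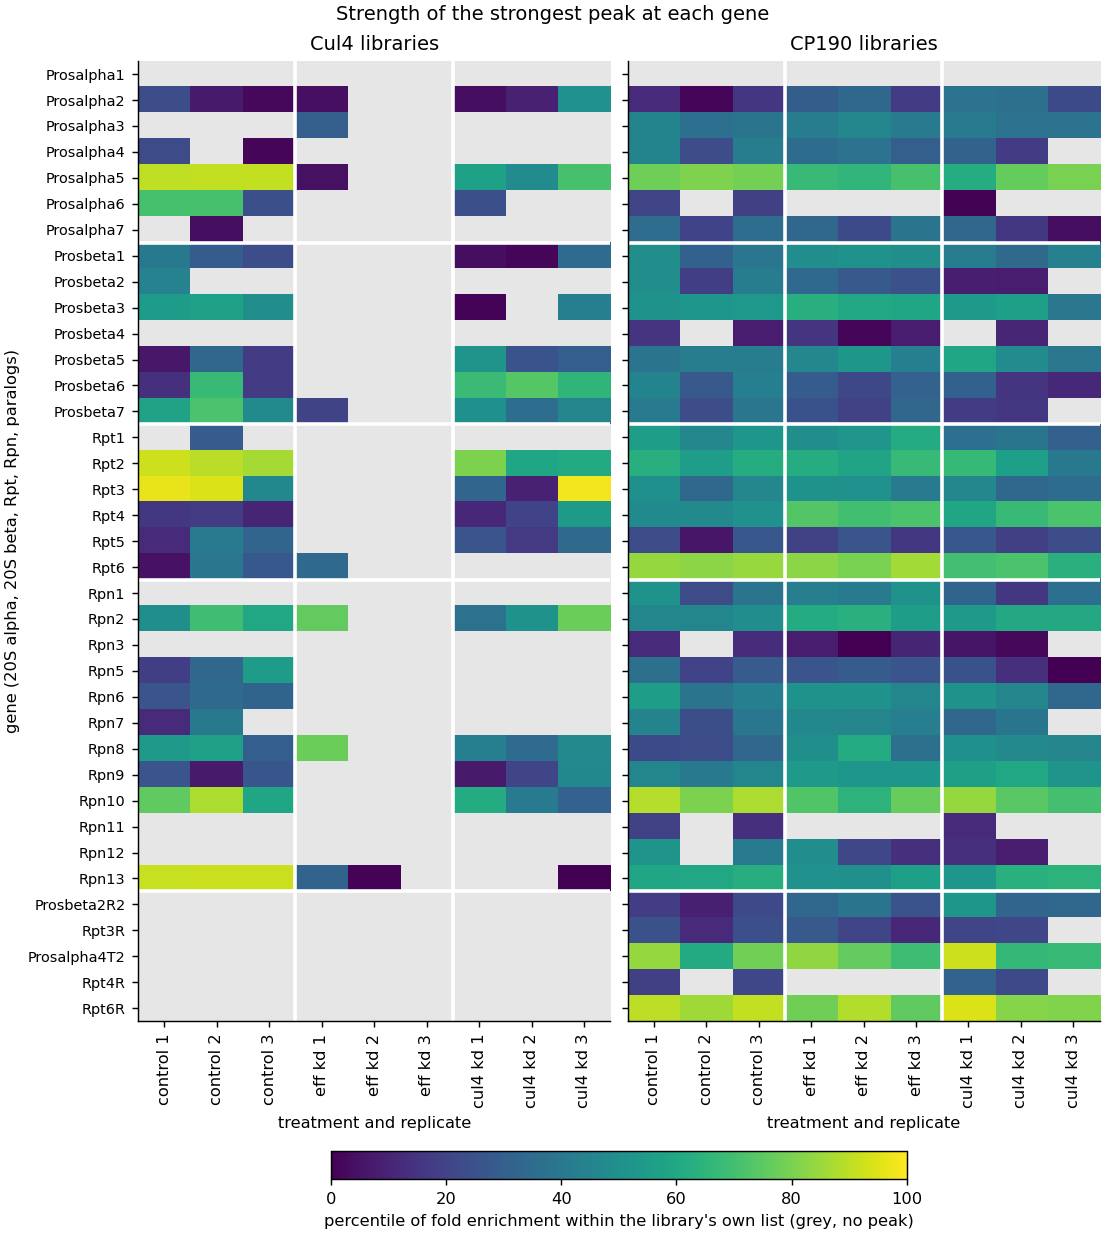
Percentile of the strongest peak at each gene (color, grey for no peak) in the 9 Cul4 (rabbit) and 9 CP190 libraries (columns), for the 32 core genes by class and the 5 paralogs with a peak in any of these lists (rows). The Cul4 columns after *eff* knockdown are nearly empty, with 8, 1 and 0 genes, while the CP190 columns hold 25 to 36 genes in every treatment.

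Among the paralogs, CP190 in all 3 control libraries was limited to *Prosalpha4T2*, *Prosbeta2R2*, *Rpt3R* and *Rpt6R* (4 of 16). Another 11 paralogs had no peak in any of the 30 lists. Su(Hw) was called in every library of every treatment at *Prosalpha4T2*, where its percentiles in control cells were 70.2, 71.9 and 73.6 and its summit lay 532 to 545 bp inside the gene, beside the CP190 summit at 534 to 548 bp. At *Rpn13*, the sole core gene with Su(Hw), the control percentiles were 27.1, 33.8 and 30.4 and the summit lay at −144 to −132 bp from the TSS, again near that of CP190 (−129 to −109 bp) and away from that of Cul4 (−430 to −416 bp). At *Rpt6R*, Su(Hw) was called in control replicates 2 and 3 at 70.5 and 72.0, with a summit at −1329 and −1316 bp, so that the gene is called through the edge of a wide peak. This distal site carried CP190 as well.

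The comparison with *eff* knockdown asks whether Cul4 needs this ubiquitin-conjugating enzyme to be on chromatin. After *eff* knockdown Cul4 was called at 8, 1 and 0 of the 48 genes, a mean of 3.00 ± 4.36 (SD, n = 3) against 22.3 ± 1.15 in control cells, and the groups did not overlap. Over all genes 21.7%, 3.39% and 1.96% were called, against 28.8%, 31.8% and 28.0% in control cells, also without overlap. None of the 48 was called in all 3 libraries, against 1.15% of all genes. Of the 20 genes with Cul4 in all 3 control libraries, 13 (65%) were called in no knockdown library and are counted as lost, 7 were called in 1 or 2 libraries and 0 were kept in all 3. Over all genes 7.59% were lost, which is 30.0% of the 4640 with Cul4 in all 3 control libraries, and 4.53% of those were kept. The lost genes were *Prosalpha6*, 4 Prosbeta genes (*Prosbeta1*, *Prosbeta3*, *Prosbeta5* and *Prosbeta6*), 4 Rpt genes (*Rpt2*, *Rpt3*, *Rpt4* and *Rpt5*) and 4 Rpn genes (*Rpn5*, *Rpn6*, *Rpn9* and *Rpn10*).

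Genes with weak peaks were lost more often over the genome, and many proteasome genes had weak peaks. This split by strength was added after the data were seen. Of genes with a mean control percentile below 50, 8 of 11 proteasome genes (72.7%) and 38.2% of all such genes were lost, and at 50 or above 5 of 9 (55.6%) and 24.5%. Replicate 1, whose list of 4488 peaks is about as long as those of the control libraries, called 7 of the 20 genes (35%) against 70.0% of all 4640 genes, replicate 2 called 1 (5%) against 13.2%, and replicate 3 called 0 against 6.85%. Without replicate 1, 19 of the 20 (95%) were lost against 84.5% of all genes. With all 6 lists shortened to the 424 strongest peaks, the mean difference in genes called shrank from −19.3 to −2.33 and 0 genes were lost. That length leaves few proteasome genes to be lost, so the 0 does not show that Cul4 was retained. These shares were not tested, and the part of depth in them was not tested.

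*Rpt2* shows the loss of a strong peak, from control percentiles of 92.3, 89.7 and 86.5 to no peak in any of the 3 libraries after *eff* knockdown. *Rpn10*, from 75.8, 87.7 and 59.3, and *Rpt3*, from 96.8, 94.4 and 46.7, had none either. At *Rpt3* the summits of the strong control peaks, those of replicates 1 and 2, lay outside the 1 kb window. Its missing call therefore does not show that this upstream site was lost. *Prosalpha6*, the gene with Cul4 but not CP190 in all 3 control libraries, went from 70.8, 70.7 and 24.3 to none. Its control peak of replicate 3 lay at another place in the window than those of replicates 1 and 2. The other lost genes began in the middle or lower part of the lists.

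*Prosbeta3*, an inner ring subunit, had control percentiles of 55.2, 57.4 and 49.6, *Prosbeta1* of 40.4, 29.2 and 23.5, and *Prosbeta6* of 14.0, 67.4 and 18.0. The peak at *Prosbeta6* lay 1089 to 1102 bp downstream of its TSS, past the end of this short gene, in a region from 16609127 to 16609557 on 3L. *Rpn5*, a lid subunit, had 18.7, 33.2 and 54.7, *Rpn6*, a lid subunit that clamps the barrel to the cap, had 26.5, 34.2 and 32.2, and *Rpn9*, also of the lid, 26.2, 7.41 and 26.9. *Rpt5*, whose promoter is shared with *RanBP3*, stood at 12.0, 41.1 and 32.5. Values of *Prosbeta5* and *Rpt4*, also lost, are given above with the lowest of the order.

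The 7 genes that retained a call did so almost solely in replicate 1. *Rpn2*, the largest scaffold of the base, was at 75.9 there, against control percentiles of 50, 69.1 and 59.9. Its fold enrichment was lower, 3.12 against a control mean of 4.15, in a list whose folds ran from 1.40 to 10.6. The summit lay at −420 bp, against a control median of −156 bp, so the higher percentile does not show a stronger peak. *Rpn8*, the partner of the deubiquitinase *Rpn11*, was at 77.6, but this peak lay at another TSS of the gene than the control peaks (54.0, 57.2 and 30.0), so the values belong to different sites. *Prosalpha5*, from above 90 in every control library, was at 4.62 in replicate 1 and had no peak in the other 2. *Rpn13* was at 31.7 in replicate 1 and 0.788 in replicate 2, the sole gene called in 2 libraries. *Rpt6*, *Prosbeta7* and *Prosalpha2* were called in replicate 1 alone, at 34.3, 20.5 and 4.29. *Prosalpha3* was called in replicate 1 with a summit 1342 bp downstream and in no other Cul4 library. No proteasome gene was gained (0% of all genes). No merged region at a proteasome gene was called in all 6 libraries, so no change of strength could be tested there, while 46.1% of the 193 such regions in the genome changed by limma at a Benjamini-Hochberg adjusted p of 0.05.

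**Figure D4:**
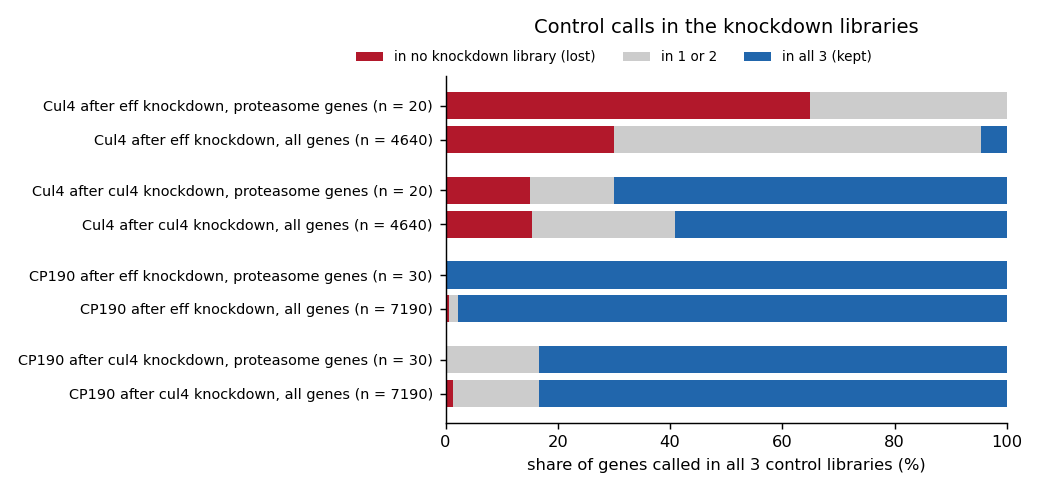
Genes called in all 3 control libraries (n beside each bar), divided by the number of knockdown libraries that called them (x axis, percent): none (red, lost), 1 or 2 (grey) or all 3 (blue, kept). The proteasome genes stand at 65% lost for Cul4 after *eff* knockdown against 30.0% of all genes, and at 15% and 15.3% after *cul4* knockdown.

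After knockdown of *cul4* itself, Cul4 was still called at most of the 20 proteasome genes that had it in all 3 control libraries. A kept call does not show that binding was unchanged. Cul4 was called at 16, 14 and 16 genes, 15.3 ± 1.15 (SD, n = 3), fewer than in any control library. Over all genes 20.5%, 16.2% and 23.0% were called, against 28.8%, 31.8% and 28.0% in control cells, also without overlap. Cul4 was called in all 3 at 14, against 15.3% of all genes. Of the 20 genes with Cul4 in control cells, 14 (70%) were kept, 3 (15%) lost and 3 called in 1 or 2 libraries, and 0 were gained. Over all genes 3.87% were lost and 0.0381% gained, and of the 4640 with Cul4 in control cells 59.1% were kept and 15.3% lost, so the share lost was near that of all genes. With the 6 lists shortened to equal length the direction turned, from a mean difference of −7 genes to 3.33, with 1 lost and 1 gained.

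The 3 lost genes were *Rpn5*, *Rpn6* and *Rpt6*, all below a mean control percentile of 50. *Rpt6* had stood at 5.07, 39.2 and 27.7. *Rpn5* and *Rpn6* were lost after both knockdowns, while 9 genes lost after *eff* knockdown were called in all 3 *cul4* knockdown libraries (*Prosbeta1*, *Prosbeta5*, *Prosbeta6*, *Rpn9*, *Rpn10*, *Rpt2*, *Rpt3*, *Rpt4* and *Rpt5*). Both comparisons use the same 3 control libraries.

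The gene that led the Cul4 order by mean percentile was missing from most of these libraries. At *Rpn13* the peak, at 91.8 or above in every control library, was called in 1 of the 3 *cul4* knockdown libraries, at a percentile of 0.248, with a fold enrichment of 2.31 against 6.71 to 7.26 in control cells. *Prosalpha5* went from 90.5, 90.7 and 90.9 to 57.3, 48.4 and 70.7, and *Rpt2* from 92.3, 89.7 and 86.5 to 80.5, 59.4 and 61.3, with no overlap between the groups at either gene, in the shorter lists described above. *Prosalpha6* was called in replicate 1 alone, at 24.4, and *Prosbeta3* in replicates 1 and 3, at 0.873 and 43.1. Of the genes lowest in control cells, *Prosbeta5* was at 51.6, 26.1 and 30.0, *Rpt4* at 11, 20 and 54.3, and *Prosalpha2* at 3.87, 9.25 and 50.5, each overlapping its control values. Over the 14 kept genes the median percentile was 45.2, 62.3 and 31.2 in control cells and 40.4, 30.5 and 48.9 after the knockdown, a difference in means of −6.35 within the spread of the libraries and close to the −7.79 of all kept genes.

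Fold enrichment of regions called in all 6 libraries was compared with limma after quantile normalisation, with p-values adjusted over all such regions. Of 2037 Cul4 regions 25% changed, and of the 14 at proteasome genes 3 did. *Prosalpha5* fell by 0.53 on the log2 scale (SE 0.123, adjusted p = 0.00521), from folds of 6.42, 6.39 and 6.92 to 3.96, 4.31 and 4.96. *Prosbeta6* rose by 0.49 (SE 0.148, adjusted p = 0.0240), from 2.86, 4.24 and 3.22 to 4.34, 5.38 and 4.67, in the region past its 3′ end. The region at *Rpt3* (X, 11123301 to 11125460) rose by 0.78 (SE 0.151, adjusted p = 0.00174), from 12.3, 7.65 and 12.1 to 12.4, 17.6 and 12.1. The raw values of *Rpt3* overlap between the groups, and this wide region takes in the summit more than 1 kb upstream of the TSS, whereas 2 of the 3 knockdown libraries had a separate, weaker peak inside the window (folds of 3.32 and 3.23). *Rpt2*, at −0.37 (adjusted p = 0.0598), and *Rpn10*, at −0.31 (adjusted p = 0.132), did not pass the threshold. The median over the 14 regions was 0.05, and 0.03 over all.

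CP190 stayed at the proteasome genes when *eff* was knocked down. It was called at the same 33 genes in each of the 3 libraries, against 36, 30 and 36 in control cells and 41% of all genes in all 3. All 30 genes with CP190 in 3 control libraries were kept, and 0 were lost and 0 gained, against 0.261% lost and 0.0272% gained over all genes and 97.7% kept of the 7190 with CP190. *Prosbeta4*, *Rpn3* and *Rpn12*, called in 2 of the 3 control libraries, were called in all 3, although at *Rpn12* the strongest peak of 2 knockdown libraries lay at another place than that of the control libraries. *Prosalpha6*, *Rpn11* and *Rpt4R*, also called in 2 control libraries, were called in none. Of the 13 genes that lost Cul4 after *eff* knockdown, 12 had CP190 in all 3 libraries after it, the exception being *Prosalpha6*. Without control replicate 2, 3 genes counted as lost, and with lists of equal length the mean difference in genes called turned from −1 to 1.

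The rank of the proteasome genes within the CP190 lists overlapped between the treatments. The median percentile of the 30 kept genes was 46.6, 34.9 and 42.8 in control cells and 49.3, 50.9 and 44.6 after *eff* knockdown, a difference in means of 6.84 in which control replicate 2 was the lowest library, while that of all kept genes differed by −0.62. By limma 37.7% of 6852 regions changed, and 11 of the 32 at proteasome genes, a share near that of all regions. With median centring in place of quantile normalisation 5 of the 32 changed, against 1959 of the 6852, a lower share at the proteasome genes. Of the 11, 9 were higher and 2 lower, whereas over all regions 1314 were higher and 1272 lower. Quantile normalisation gives the 6 libraries the same distribution of folds, which by itself tends to balance rises and falls over all regions. The median log2 change was 0.15 at the proteasome genes and −0.01 over all regions.

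The ATPase gene *Rpt4* rose most, by 0.62 on the log2 scale (SE 0.0918, adjusted p = 8.98e-04). Its CP190 fold enrichment was 7.04, 6.27 and 6.99 in control cells and 11.7, 11.3 and 11.8 after *eff* knockdown, with no overlap, and its percentile went from 47.5, 47.5 and 50.7 to 73.2, 69.7 and 71.6. *Rpn8* rose by 0.60 (adjusted p = 0.00671), from folds of 4.88, 4.46 and 5.34 to 7.93, 9.73 and 6.34. *Prosalpha2*, last in the control order, rose by 0.56 (adjusted p = 0.00164), from 4.07, 2.88 and 4.10 to 5.70, 6.03 and 4.65. The paralog *Prosbeta2R2* rose by 0.46 (adjusted p = 0.00344) and the base scaffold *Rpn2* by 0.38 (adjusted p = 0.0101). *Prosbeta1*, *Rpn9*, *Rpn7* and *Prosbeta3* rose by 0.26 to 0.29, the last of them just inside the threshold (adjusted p = 0.0449). The genes that fell were the strong sites *Rpn10*, by 0.36 (adjusted p = 0.0172), and the proximal region of *Rpt6R* (3R, 30583410 to 30584513), by 0.28 (adjusted p = 0.0175). Raw folds of *Rpn10*, 13.7, 11.5 and 13.1 against 11.6, 10.3 and 13.0, overlap between the groups.

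**Figure D5:**
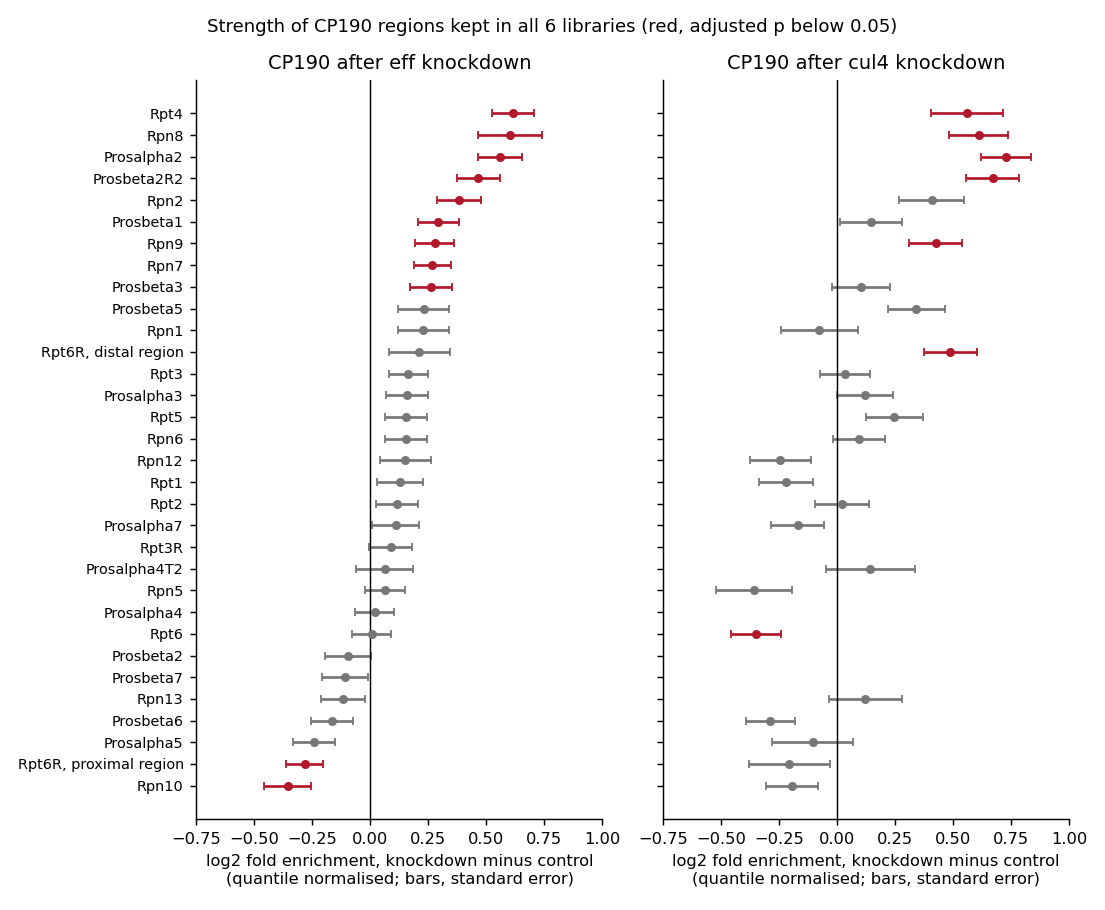
Change of CP190 fold enrichment (x axis, log2 knockdown minus control after quantile normalisation, bars are the standard error) at the proteasome gene regions called in all 6 libraries, after *eff* (left) and *cul4* (right) knockdown, ordered by the *eff* value. Red points passed an adjusted p of 0.05, 11 of 32 on the left and 7 of 27 on the right, and both panels use the same control libraries.

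After *cul4* knockdown CP190 was called at 35, 34 and 25 genes and in all 3 libraries at 25, against 33.5% of all genes. Replicate 3, the library with 25, had the shortest CP190 list, 6496 peaks, and the lowest background, 6.21 reads, and without it the mean number called exceeded that of control cells by 0.5. At equal list length the mean difference went from −2.67 to 1.33, with 1 gene lost and 3 gained. Of the 30 genes with CP190 in control cells 25 (83.3%) were kept, as were 83.3% of all such genes, and 0 were lost and 0 gained, against 0.539% and 0.0109% of all genes. The other 5, *Prosalpha4*, *Prosbeta2*, *Prosbeta7*, *Rpn7* and *Rpt3R*, were missed by replicate 3 alone. The 3 genes that lost Cul4 after this knockdown, *Rpn5*, *Rpn6* and *Rpt6*, all kept CP190 in all 3 libraries.

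The median CP190 percentile of the 25 kept genes was 49.4, 40.5 and 45.9 in control cells and 52.4, 47.0 and 39.6 after *cul4* knockdown, a difference in means of 1.1 within the spread, against −6.82 for all kept genes. By limma 25.4% of 5930 regions changed and 7 of 27 at proteasome genes, again near the share of all regions. With median centring 4 of the 27 changed, against 908 of the 5930. With 1 library left out, 3 to 11 regions at proteasome genes changed. *Prosalpha2* rose by 0.73 (SE 0.107, adjusted p = 0.00281), from folds of 4.07, 2.88 and 4.10 to 6.23, 7.39 and 7.17. *Prosbeta2R2* rose by 0.67 (adjusted p = 0.00448), *Rpn8* by 0.61 (adjusted p = 0.00917), *Rpt4* by 0.56 (adjusted p = 0.0263) and *Rpn9* by 0.42 (adjusted p = 0.0243). The distal region of *Rpt6R* (3R, 30584564 to 30585376) rose by 0.49 (adjusted p = 0.0146). *Rpt6* fell by 0.35 (adjusted p = 0.0378), and its percentile went from 84.0, 82.8 and 84.4 to 70.1, 71.8 and 63.6, with no overlap. Its raw folds were 12.4, 12.2 and 12.1 in control cells and 10.3, 14.9 and 15.5 after the knockdown, so that the raw mean rose and the fall is that left after quantile normalisation.

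Su(Hw) calls at its 3 genes were neither lost nor gained, while 1 region rose in strength after *cul4* knockdown. It was called at 3 genes in each library after *eff* knockdown and at 3, 2 and 2 after *cul4* knockdown. Calls in all 3 libraries numbered 3 and 2, against 6.28% and 5.48% of all genes. Over all genes 0.0872% were lost and 0.0272% gained after *eff* knockdown and 0.534% lost and 0% gained after *cul4* knockdown. *Prosalpha4T2* was at percentiles of 61.3, 82.6 and 47.9 after *eff* knockdown and 66.8, 62.4 and 75.9 in the *cul4* knockdown libraries, both overlapping control cells. *Rpn13* was at 22.4, 15.8 and 16.1 after *eff* knockdown, below its control values of 27.1, 33.8 and 30.4, and at 24.2, 28.3 and 22.2 after *cul4* knockdown. By limma the region at *Rpn13* did not pass the threshold after either knockdown (adjusted p = 0.122 and 0.405). *Rpt6R* was called in all 3 libraries after *eff* knockdown (70.0, 86.7 and 60.7) and in 1 after *cul4* knockdown (83.5). Its distal region (3R, 30584659 to 30585273) held a Su(Hw) peak in all 6 libraries of the latter comparison and rose by 0.46 (SE 0.106, adjusted p = 0.00893), from folds of 8.73, 9.95 and 9.44 to 15.2, 16.1 and 10.3. The groups do not overlap, and in 2 of the knockdown libraries this peak lay wholly outside the 1 kb window. It was 1 of 3 regions, and the sole one that changed, against 32.8% of 2990 regions, and after *eff* knockdown 0 of 3 changed by limma, also at an unadjusted p of 0.05, against 32.7% of 3414.

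The genes that work with the proteasome were compared through a list of 22 symbols, of which 19 matched the annotation. They comprise ubiquitin genes, the activating enzyme *Uba1*, shuttle and chaperone factors and the regulators *cnc* and *maf-S*. In control cells 12 of the 19 had Cul4 in all 3 libraries, 13 had CP190 and 0 had Su(Hw), against 25.3%, 39.2% and 6.7% of all genes. The mouse Cul4 antibody called 4 in all 3 of its libraries, *Uba1*, *cnc*, *Pngl* and the proteasome assembly factor *Pomp*, where it called 0 of the 48 subunit genes and 3.55% of all genes. After *eff* knockdown 2 of the 12 lost Cul4 (16.7%), *RpS27A* and *maf-S*, compared with 13 of 20 subunit genes and 30.0% of all genes with Cul4 in control cells, and 0 were kept in all 3 libraries. *Pomp*, *Uba1*, *Ubi-p5E* and *Ubi-p63E* kept Cul4 in 2 of the 3, against 1 of the 20 subunit genes. After *cul4* knockdown 0 of the 12 were lost and 7 kept, against 15.3% and 59.1% of all such genes. CP190 was kept at 13 of 13 after *eff* knockdown and 12 of 13 after *cul4* knockdown, against 97.7% and 83.3%. These counts were not tested, and the strength of the control peaks at the listed genes is not given here, so the groups were not matched for it.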

How the data were processed

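ChIP-seq libraries of Kc167 cells (3 biological replicates in each of 10 groups) were represented by peak lists. The authors trimmed 50-bp reads with cutadapt 3.4, aligned them to dm6 with Bowtie2 2.4.2, filtered at a mapping quality of 20 and removed duplicates with Picard, and ran MACS2 2.2.7.1 on each library with a q cutoff of 1e-09. The deposited lists give fold enrichment (a ratio over local background), −log10 p and −log10 q, and a score derived from q. The methods describe giving MACS2 the replicates and inputs together, but 1 list per library was deposited, the lists of a group differ, and each was taken as its library's own. Read totals are not in the lists, so no counting interval is given. Gene starts came from the Ensembl annotation of the BDGP6 assembly, and sequences from the RefSeq genome of the same release 6 assembly. The 48 symbols had the same coordinates in both annotations.

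A gene was called when a peak overlapped 1 kb around any TSS by 1 base. Lost means called in 3 control and 0 knockdown libraries, gained the reverse. Counts were given without a test. Fold enrichment of merged regions called in all 6 libraries was log2-transformed, quantile normalised and compared with limma 3.58.1 (R 4.3.3, Python 3.11.15), with Benjamini-Hochberg adjustment over all regions. Tested on simulated data, the fit found 80% to 95.5% of planted changes of 1 on the log2 scale, with 1 to 14 false calls per comparison. The simulated libraries did not differ in depth or list length, so false calls from such differences are not covered. Smaller changes, such as those reported at the proteasome genes, were not planted, so their detection rate is not known. Genes named are those lost, gained or changed, the ends of the control orders, and exceptions chosen after their values were seen. The members and lists were chosen with earlier results of these data known. The 9 input libraries had no list and were not analysed here.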

Additional observations from a re-analysis of the deposited data

How the results depend on the processing

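Of 291 alternatives over 31 results, 265 left the result as reported, 19 moved it and 7 reversed it. Peak number mattered most. When every list of a comparison was shortened to the same length, the mean number of proteasome genes called per library, knockdown minus control, went from −19.3 to −2.33 for Cul4 after *eff* knockdown, from −7 to 3.33 for Cul4 after *cul4* knockdown, from −1 to 1 for CP190 after *eff* knockdown and from −2.67 to 1.33 for CP190 after *cul4* knockdown. At equal length the genes that lost Cul4 numbered 0 after *eff* knockdown instead of 13 and 1 after *cul4* knockdown instead of 3, while 1 gained it after *cul4* knockdown. For CP190 after *cul4* knockdown 1 was lost and 3 were gained. The list of 424 peaks sets that length for Cul4 after *eff* knockdown, so few proteasome genes are left to be lost. At a −log10 q of 20 or above, 13 genes had Cul4 in 3 control libraries instead of 20.

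Leaving out 1 replicate at a time, Cul4 was lost at 13 to 19 genes after *eff* knockdown (19 without its replicate 1), and CP190 at 0 to 3 (3 without control replicate 2). The difference in genes called ran from −4.67 to 0.5 for CP190 after *cul4* knockdown and from −3 to 0 after *eff* knockdown. The median percentile of kept genes ran from −13.9 to 1.69 for Cul4 (above 0 without control replicate 2), and from −1.89 to 3.20 for CP190 after *cul4* knockdown (−1.26 without control replicate 2, −1.89 without knockdown replicate 1). Regions of changed CP190 strength ran from 5 to 11 after *eff* and from 3 to 11 after *cul4* knockdown, and Cul4 regions after *eff* knockdown from 0 to 1 (1 without replicate 3). With median centring, 5 and 4 CP190 regions changed instead of 11 and 7. Over the genome 1959 changed instead of 2586 after *eff* knockdown, and 908 instead of 1506 after *cul4* knockdown. With summits required within 1 kb, 0 Su(Hw) regions changed after *cul4* knockdown instead of 1.

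Same-numbered replicates were checked for pairing, and their deviations correlated at −0.269 to 0.408. With 3 libraries per group this check cannot decide whether the numbers pair the samples, and the main fit did not pair them. With a replicate block 10 CP190 regions changed after *eff* knockdown and 8 after *cul4* knockdown, and the Cul4 and Su(Hw) counts were 0, 3, 0 and 1, as without it.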
